A study of Mus musculus with 16 samples.

Results

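Transcripts of the constitutive proteasome were measured by RNA sequencing in cardiomyocytes from adult C57BL/6 mouse hearts. The genes were taken by name: gene symbols that begin with Psma, Psmb, Psmc, Psmd or Psme and a digit, without the inducible Psmb8, Psmb9 and Psmb10 and without pseudogene names. This gave 43 of the 57010 gene models, of which 41 were among the 14066 genes with enough counts to test. Psmb11, the thymus beta subunit, had 2 counts in all 16 libraries together, and Psme2b was the other gene left untested. Of the 43 names, Psmc3ip, Psme3ip1 and Psme2b are matches by name that are not counted as subunits below. Psmc3ip encodes a recombination factor and Psme3ip1 a protein that binds the activator Psme3.

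All animals were wild type, and all carried an adeno-associated virus of serotype 9, used to deliver genes to heart muscle: AAV9-Vector (the control) or AAV9-PRODH. The latter encodes proline dehydrogenase, which starts the breakdown of proline in mitochondria. Sham surgery or transverse aortic constriction (TAC), which loads the left ventricle with pressure, took place 3 weeks after injection, and myocytes were isolated after a further 4 weeks. The 4 groups of 4 libraries are called vector sham and vector TAC, and PRODH sham and PRODH TAC. Which promoter drives PRODH was not stated in the labels. Whether the 4 libraries of a group are different animals is not stated in the labels. The p-values therefore describe only how these libraries vary, and that variation may be technical. The design asks what TAC did under the vector, and what PRODH did in hearts that had undergone TAC.

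The 26S proteasome degrades proteins that carry ubiquitin chains. Its 20S core is a barrel of stacked rings, with outer alpha rings that gate the entrance and inner beta rings that cut. The 19S cap has a base of ATPases that unfold the substrate and a lid that removes ubiquitin. Dedicated chaperones assemble it, and the Psme proteins open the core without the cap. In heart muscle, the pathway turns over sarcomere proteins marked by muscle ubiquitin ligases, and the transcription factors NRF1 (Nfe2l1) and NRF2 (Nfe2l2) can raise transcription of proteasome genes.

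Library totals ran from 15987580 to 22680212 counts, and the 43 genes together took 0.198% to 0.242% of them. Prodh, the targeted gene, was read at 10.4 to 11.5 TMM-normalised CPM (counts relative to the scaled total of a library) in vector sham, 6.18 to 8.37 in vector TAC, 12.6 to 14.8 in PRODH sham and 12.3 to 14.7 in PRODH TAC. Its PRODH minus vector difference after TAC was 0.90 ± 0.10 (log2 ± SE, n = 4 libraries a group, edgeR adjusted p = 2.19e-08). After sham it was 0.33 (edgeR adjusted p = 0.0517), which passed the threshold when any single vector TAC library, or PRODH sham library 1, was left out (adjusted p = 0.0338 to 0.0482). Cardiomyocyte markers (12 genes, all detected) summed to 33719 to 52074 CPM. The summed fibroblast markers, all 12 detected, rose from 313 to 480 CPM in vector sham to 2172 to 2416 CPM in vector TAC. They were at 636 to 810 CPM in PRODH TAC. Vector TAC libraries 3 and 4 stood apart in the mitochondrial transcript mt-Nd4, at 20065 and 22041 CPM, against at least 25933 CPM in the other 14, and in several genes below. Counts are therefore also given without both.

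Levels per kilobase of the gene length that the authors deposited were compared in vector sham, on the linear CPM scale. The 14 housekeeping core subunits spanned 16.3 to 97.4 CPM per kilobase, a 5.98-fold range. Psmb7 (97.4), Psmb6 (88.1), Psma6 (86.3) and Psmb3 (79.0) led, and Psma3 (16.3) and Psma2 (19.9) were lowest. This ranking depends on the deposited length, which was long for Psma3 (2846 bases) and Psma2 (2911) and short for Psmb3 (766) and Psmb6 (798). In CPM without division by length, Psma3 (46.3) and Psma2 (57.9) lay above Psma5 (32.2) and Psmb2 (36.5). The 7 detected beta subunits had a median of 73.6 CPM per kilobase. The ATPases lay between 31.4 for Psmc4 and 79.8 for Psmc3, and the 8 lid subunits between 21.0 for Psmd14 and 39.3 for Psmd8. Much lower were the base chaperones Psmd5 (2.15), Psmd9 (3.85) and Psmd10 (4.19). Among the activators, Psme1 was at 78.2, Psme2 at 35.4, Psme4 at 28.3 and Psme3 at 12.5 CPM per kilobase. Psma8, the germ cell alpha subunit, was at 0.383. A fractional estimated count was given in every library for Psma3, Psmb7 and Psmd11, and in 15 of 16 for Psme2, Psme2b and Psmc3ip. Reads divided between similar sequences may give such counts, which was not tested, so these levels are less certain.

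To show what lies upstream of these genes, 5 windows of 250 bases before the gene start are printed from RefSeq (mouse build GRCm38.p6). Psmb5 and Psmb6 encode catalytic subunits. Psmd12 and Psmc6 are, with them and Psmd9, the members in which the core of the antioxidant response element was found. Psmd8 is the only gene called higher after TAC under the vector with TMM scaling, as described further on. Each is written 5′ to 3′ on the strand of its gene, and capitals mark the antioxidant response element core (TGACNNNGC on either strand).
Psmb5 (chr14:54617996-54618245, minus strand): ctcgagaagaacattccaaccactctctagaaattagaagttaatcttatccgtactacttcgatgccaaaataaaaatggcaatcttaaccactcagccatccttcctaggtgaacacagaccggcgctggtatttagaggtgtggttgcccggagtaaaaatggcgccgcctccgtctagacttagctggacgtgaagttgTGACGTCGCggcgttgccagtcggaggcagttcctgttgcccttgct
Psmb6 (chr11:70525107-70525356, plus strand): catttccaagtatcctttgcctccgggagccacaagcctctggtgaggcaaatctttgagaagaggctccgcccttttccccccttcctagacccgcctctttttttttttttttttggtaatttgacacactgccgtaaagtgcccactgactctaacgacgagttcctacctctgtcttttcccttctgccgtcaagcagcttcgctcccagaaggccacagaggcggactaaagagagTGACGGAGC
Psmd12 (chr11:107479278-107479527, plus strand): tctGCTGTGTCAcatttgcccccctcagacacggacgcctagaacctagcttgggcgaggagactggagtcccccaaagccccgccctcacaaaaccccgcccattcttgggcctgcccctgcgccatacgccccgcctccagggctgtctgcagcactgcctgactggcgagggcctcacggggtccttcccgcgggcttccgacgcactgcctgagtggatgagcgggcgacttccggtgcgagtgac
Psmc6 (chr14:45329574-45329823, plus strand): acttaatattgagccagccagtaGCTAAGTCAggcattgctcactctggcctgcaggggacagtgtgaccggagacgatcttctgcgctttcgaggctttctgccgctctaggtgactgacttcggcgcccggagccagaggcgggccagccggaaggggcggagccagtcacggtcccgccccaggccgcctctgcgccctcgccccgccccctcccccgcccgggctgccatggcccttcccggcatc
Psmd8 (chr7:29180674-29180923, minus strand): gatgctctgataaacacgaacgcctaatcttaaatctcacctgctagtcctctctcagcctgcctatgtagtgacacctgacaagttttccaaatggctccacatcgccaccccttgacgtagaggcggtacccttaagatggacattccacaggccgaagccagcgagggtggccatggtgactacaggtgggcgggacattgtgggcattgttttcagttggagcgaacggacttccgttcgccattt

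The core began at -47 from the gene start in Psmb5 and at -9 in Psmb6, on the strand of the gene. It began at -247 in Psmd12 and at -227 in Psmc6 on the opposite strand. Psmd8 had none in this window. A window was held for 36 of the 43 genes, and 7 motifs were searched in both orientations. The antioxidant core was in 5 windows (13.9%), against 11.5% of the 27025 genes with a window. An ETS element (CCGGAAG) was in 12 (33.3%, against 7.83% of all genes) and a GC box (GGGCGG) in 21 (58.3%, against 35.4%). The CCAAT box (CCAAT) was in 15 (41.7%, against 37.5%), the E-box (CACGTG) in 4 (11.1%, against 6.86%) and a YY1-type element (AAGATGG) in 4 (11.1%, against 5.18%). The heat shock core (TTCNNGAA) was in 2 windows (5.56%, against 8.11%). These are matches of letters, which say nothing of whether a factor binds there.

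TAC under the vector lowered transcripts of the proteasome core and cap relative to the median of all tested genes. Of the 41 tested genes, 22 fell and 1 rose (edgeR, adjusted p under 0.05), and the remaining 18 did not pass. Over all tested genes 26.2% fell, 30.3% rose and 56.5% changed either way, against 53.7%, 2.44% and 56.1% of the 41. The median difference was -0.22 on the log2 scale, against 0.02 for all genes. The 43 genes together summed to 2404 CPM ± 81.8 (SD, n = 4) in vector sham and 2089 ± 28.8 in vector TAC. The lowest sham library (2329) lay above the highest TAC library (2129), so the groups did not overlap. By library size alone, which follows the share of all counts, the sums were 2104 in vector sham and 2335 in vector TAC. The mean share of all counts was thus higher after TAC.

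The direction in absolute terms depended on the scaling. TMM factors, which set most genes at no change, were used throughout. With library size as the only scaling, the all-gene median was 0.37 in place of 0.02, and the calls among the 41 became 17 higher and 1 lower, with a median of 0.13 (53.1% of all genes were then higher and 8.52% lower). Relative to the median of all genes, the 41 lay at -0.24 under each of the 4 scalings tried. A scaling shifts all genes by about the same amount, so this agreement was fixed in advance and lends no support. Levels and verbs below are on the TMM scale, and medians are given relative to all genes. In bulk RNA, fewer cells of a type and less RNA per cell cannot be told apart.

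**Figure D1:**
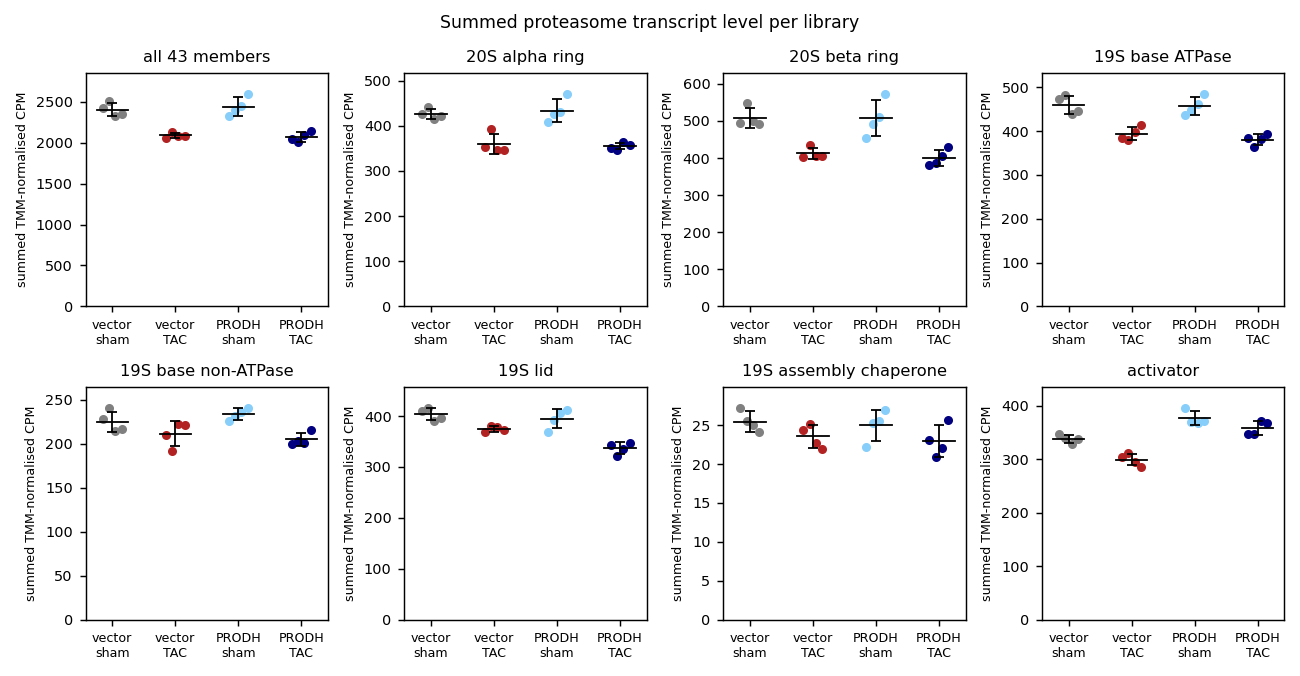
Summed TMM-normalised CPM of all 43 genes and of each functional class (y axis, from 0) in the 16 libraries (points), with mean and SD (bars). For all 43, vector TAC lay at 2061 to 2129 and PRODH TAC at 2004 to 2148, below vector sham (2329 to 2511) and PRODH sham (2327 to 2591), whereas by library size alone the TAC means were the higher (2335 against 2104, and 2392 against 2165).

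Of the 7 tested genes of the cutting beta ring, 6 fell, with a median of -0.32 relative to all genes. Library size alone called 1 of them higher and none lower. Psmb5, the chymotrypsin-like subunit, was at 56.2, 67.9, 56.0 and 56.7 CPM in the vector sham libraries and at 45.9, 46.2, 46.1 and 44.4 in vector TAC. Every TAC library was below every sham library, with a log2 difference of -0.38 ± 0.09 (edgeR adjusted p = 9.16e-04). Psmb6, the caspase-like subunit, read 63.7, 79.1, 71.5 and 66.9 CPM in sham and 53.1, 55.1, 61.1 and 58.7 after TAC. It fell by 0.305 ± 0.09 on the log2 scale (edgeR adjusted p = 0.00355), again without overlap. Psmb7, the trypsin-like subunit, went from 118, 116, 109 and 109 CPM to 79.5, 94.9, 74.2 and 78.8. This was the largest fall of the ring (-0.47 ± 0.07, edgeR adjusted p = 2.49e-06), and the groups were well apart. Psmb4, Psmb2 and Psmb3, structural subunits, also fell, by 0.38, 0.22 and 0.20. Psmb1 differed by -0.10 and did not pass. Under library size alone Psmb6 had the opposite sign (0.05) and Psmb5 (-0.02) and Psmb7 (-0.11) did not pass.

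In the alpha ring, 4 of 8 tested genes fell, with a median of -0.30 relative to all genes. Library size alone called 1 of them lower and 3 higher. Psma1 read 77.0, 72.1, 66.0 and 71.7 CPM in vector sham and 51.4, 56.2, 42.2 and 42.5 in vector TAC. Its difference was -0.58 ± 0.08 (edgeR adjusted p = 4.28e-07), and it stayed the only member called lower under library size alone (-0.22). The TAC values were split, with libraries 3 and 4 below 1 and 2. All 4 lay under every sham value, which was a condition for choosing this gene. Without libraries 3 and 4 the difference was -0.42 (edgeR adjusted p = 8.50e-05). Psma2 (-0.37), Psma4 (-0.36) and Psma6 (-0.21) were the other calls, with no overlap between groups. Psma5 (-0.02) and Psma7 (0.03) lay close to no change.

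Among the 6 ATPases of the base (median -0.27 relative to all genes, and 2 higher by library size alone), Psmc2 (-0.32), Psmc3 (-0.24), Psmc5 (-0.26) and Psmc6 (-0.36) fell, and Psmc1 (-0.07) and Psmc4 (-0.07) did not pass. Psmc6 was split within vector TAC. Its sham libraries read 81.6, 72.1, 74.3 and 81.6 CPM, and its TAC libraries 64.8, 75.0, 49.8 and 50.5, so that library 2 lay inside the sham range. It was not among the 17 genes called lower without vector TAC libraries 3 and 4. Of the non-ATPase base subunits, Psmd2 (-0.22), a docking scaffold, fell, while the scaffold Psmd1 (0.00) and the ubiquitin receptor Psmd4 (0.06) did not pass.

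The lid was divided, with a median of -0.12 relative to all genes and 5 of 8 genes higher by library size alone. Psmd12 (-0.35 ± 0.06, edgeR adjusted p = 3.40e-05), Psmd6 (-0.41) and Psmd14 (-0.33), the deubiquitinase of the lid, fell. Psmd12 was at 67.1, 66.1, 60.1 and 63.6 CPM in sham and at 50.0, 53.1, 50.2 and 48.8 after TAC. Its groups did not overlap, which was a condition for choosing it. Psmd3 (-0.11), Psmd7 (-0.03), Psmd11 (-0.10) and Psmd13 (0.04) did not pass. Psmd8, the lid subunit that joins last, was the only gene of the 41 to rise, and it is named here after its values were seen. It read 56.8, 64.7, 58.1 and 58.1 CPM in sham and 62.2, 69.2, 72.4 and 76.0 in TAC. The difference was 0.23 ± 0.07 (edgeR adjusted p = 0.00729), and the groups overlapped by 1 library on each side. Without vector TAC libraries 3 and 4 no gene was called higher.

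Of the 4 activators, only Psme1, a subunit of the interferon-inducible ring, passed. Psme1 was at 84.5, 95.6, 83.1 and 84.6 CPM in vector sham and at 58.6, 62.1, 65.8 and 67.8 in vector TAC, a difference of -0.45 ± 0.08 (edgeR adjusted p = 1.10e-05). Its partner Psme2 differed by -0.08 (adjusted p = 0.315), the nuclear Psme3 by 0.07 (0.500) and Psme4, a large single-chain activator, by -0.13 (0.180). Library size alone called all 3 of these higher (0.27, 0.42 and 0.23). Psmd10, a base chaperone, fell by 0.43, and Psmd5 (0.11) and Psmd9 (-0.15) did not pass. The name matches Psmc3ip (-0.58) and Psme3ip1 (-0.25) fell, with overlapping groups.

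**Figure D2:**
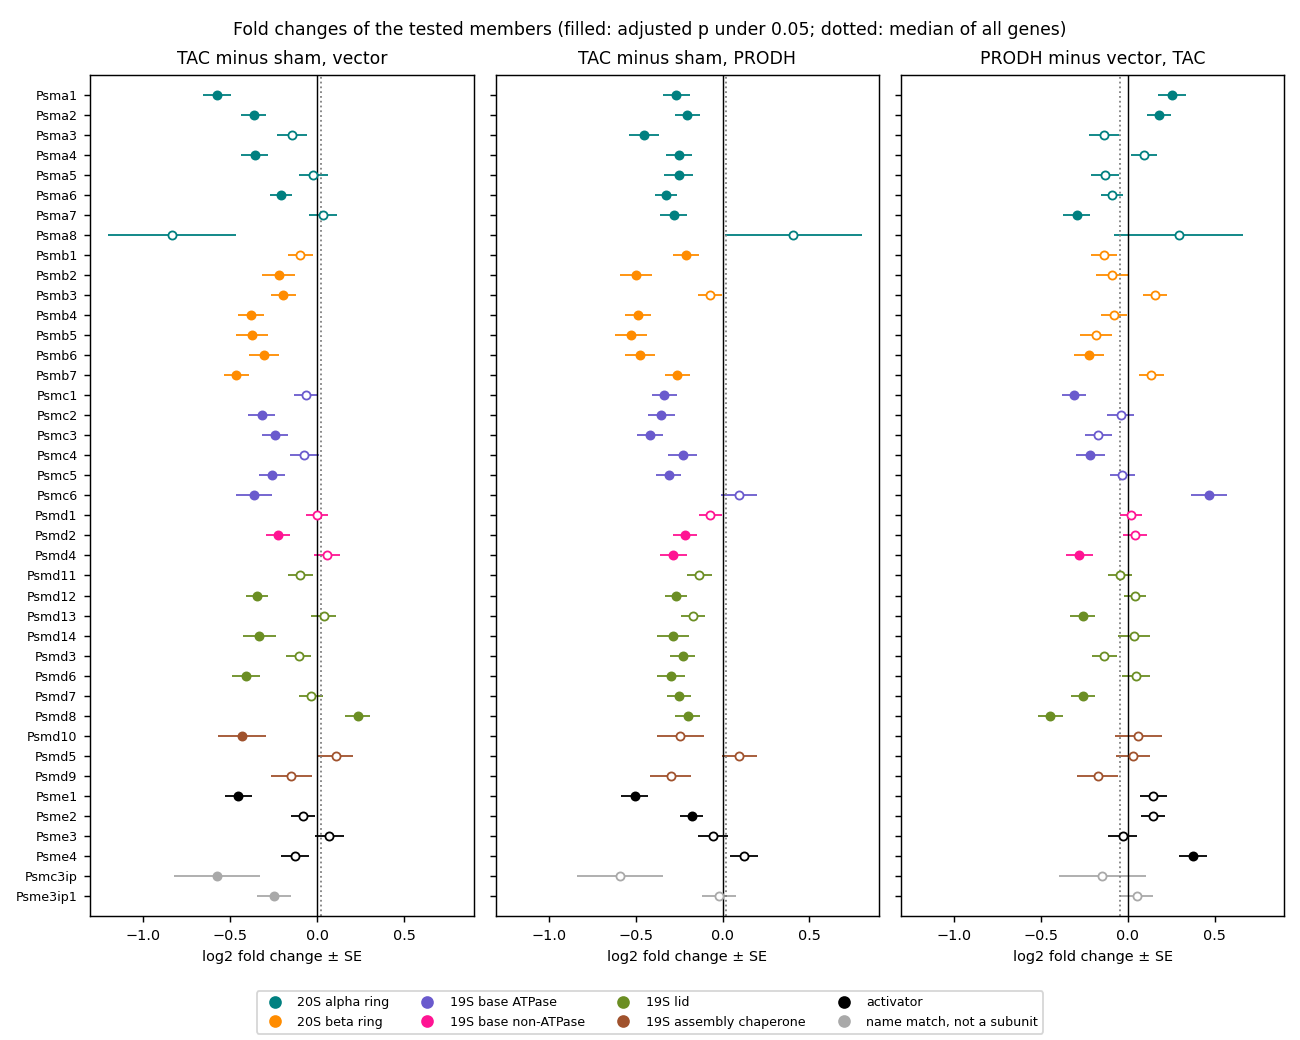
Log2 fold change ± SE (x axis) of the 41 tested genes (y axis) in 3 comparisons, coloured by class, with filled points for an edgeR adjusted p under 0.05 and a dotted line at the median of all genes. Under the vector 22 genes fell and 1 rose, under PRODH 28 fell and none rose, and PRODH against vector after TAC gave 4 higher and 8 lower. Under library size alone the TAC calls became 17 higher and 1 lower, and 12 higher and none lower.

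Markers of other cells moved with TAC in the same libraries. Endothelial markers (10 genes) summed to 525 to 634 CPM in vector sham and 989 to 1069 in vector TAC, and myeloid markers (11 genes) to 116 to 189 and 349 to 383. Mural markers (9 genes, 6 higher and 2 lower) summed to 426 to 446 CPM in vector sham and 521 to 579 in vector TAC. No marker of any list was at 0 in every library of a group. Cardiomyocyte markers, 10 of 12 lower and 1 higher, summed to 47039 to 52074 CPM and then 33719 to 35792. The part of these shifts in the lower proteasome transcripts was not tested.

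The genes around the proteasome were read in the same comparison, in lists chosen with results of these data known. In that comparison 26.2% of all tested genes were lower and 30.3% higher. Assembly factors and cap partners moved mostly down, with 11 of 17 tested genes lower and 1 higher (library size alone: 1 lower and 2 higher). Ecpas, which holds the cap to the core, fell by 0.55, Psmg2, a chaperone of alpha ring assembly, by 0.61 and Zfand5, a stress activator of the proteasome, by 0.40. Of 17 striated muscle ubiquitin ligases 12 were lower, whereas by library size alone 5 were lower and 4 higher. Fbxo32 (atrogin-1) fell by 0.80, Klhl38 by 1.34 and Klhl31 by 0.65, all 3 also lower under library size alone.

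Other lists went both ways, as did all tested genes. Of 9 ubiquitin genes and activating enzymes, 1 was higher (Ubb, a polyubiquitin gene, 0.42) and 5 were lower, among them Uba3 (-0.61), the NEDD8-activating enzyme, and Nedd8 (-0.33). Shuttle and ubiquitin receptors gave 1 higher (Sqstm1, 0.30) and 5 lower of 9, with Nbr1 at -0.26 and Optn at -0.21. The p97 segregase, which pulls substrates out of complexes, and its cofactors gave 3 higher and 5 lower of 12 (Faf2 0.62, Plaa -0.38, Vcp -0.28). Conjugating enzymes gave 6 higher and 11 lower of 27 (Ube2l6 1.06, Ube2b -0.65, Ube2d1 -0.38). By library size alone these 4 lists gave 4, 6, 7 and 15 genes higher and 0, 0, 0 and 1 lower. Among 11 tested regulators of NRF1 and NRF2, 5 were higher and 2 lower, with the small MAF partners Mafk at 1.29 and Maff at 1.44 and the ligase subunit Fbxw7 at -0.83. By library size alone 9 were higher and 1 lower. Nfe2l1 itself differed by 0.09 (edgeR adjusted p = 0.235).

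The 3 inducible beta subunits, which replace Psmb5, Psmb6 and Psmb7 in the immunoproteasome, rose while the constitutive ones fell on the TMM scale. By library size alone none of the constitutive 3 was called (Psmb5 -0.02, Psmb6 0.05 and Psmb7 -0.11), so their fall depended on the scaling. Psmb8 was at 5.57 CPM ± 1.32 (SD, n = 4) in vector sham and 11.5 ± 0.346 in vector TAC, a log2 difference of 1.03. Psmb9 went from 2.95 ± 0.421 to 5.15 ± 0.427 CPM and Psmb10 from 18.4 ± 1.70 to 31.2 ± 2.89, differences of 0.80 and 0.76. All 3 passed (edgeR adjusted p = 6.34e-08, 2.63e-05 and 1.79e-08), and they were higher under library size alone as well. The shift of myeloid and endothelial markers given above stands beside this result, and its part was not tested.

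PRODH against vector in hearts after TAC left the summed constitutive level about where it was. Single subunits were called both ways, as were all tested genes, and in a smaller share than all genes. Of the 41 tested, 4 were higher and 8 lower, 29.3% in all, against 43.1% of all genes (18.5% higher and 24.6% lower). The median was -0.04, and that of all genes was -0.04. With median-ratio (RLE) factors the split was 5 higher and 6 lower, with TMM computed without mitochondrial genes 6 and 6, and by library size alone 7 and 6. By library size alone 19.6% of all genes were higher and 20.2% lower. Summed CPM was 2089 ± 28.8 in vector TAC and 2073 ± 62.2 in PRODH TAC, with overlapping ranges (2061 to 2129 and 2004 to 2148). The 4 higher were Psmc6, Psme4, Psma1 and Psma2, and the 8 lower were Psmd8, Psmc1, Psma7, Psmd4, Psmd13, Psmd7, Psmb6 and Psmc4.

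Psmc6, an ATPase of the base, read 64.8, 75.0, 49.8 and 50.5 CPM in vector TAC and 87.9, 83.8, 84.6 and 75.3 in PRODH TAC. It was higher by 0.46 ± 0.10 (edgeR adjusted p = 8.50e-04). The groups were separated by a narrow gap, and a lack of overlap was a condition for choosing it. Without vector TAC libraries 3 and 4 the difference was 0.25 (edgeR adjusted p = 0.0407). Psme4, which opens the core without ATP, read 180, 186, 156 and 151 CPM in vector TAC and 208, 213, 233 and 220 in PRODH TAC. The 4 PRODH libraries were all higher, by 0.38 ± 0.08 (edgeR adjusted p = 3.27e-04), and by 0.26 (edgeR adjusted p = 0.0253) without libraries 3 and 4. Psma1 (0.25, edgeR adjusted p = 0.0116) and Psma2 (0.18, 0.0396) overlapped between groups and were not called without libraries 3 and 4.

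Psmd8 gave the smallest p of the 8 lower genes. It read 62.2, 69.2, 72.4 and 76.0 CPM in vector TAC and 51.9, 50.4, 50.7 and 52.2 in PRODH TAC. The PRODH libraries lay close together and below every vector library (-0.45 ± 0.07, edgeR adjusted p = 1.01e-05). Psmc1, another base ATPase, was at 73.5, 66.3, 73.3 and 78.3 CPM and then 59.8, 56.9, 59.5 and 58.6 (-0.31 ± 0.07, edgeR adjusted p = 5.96e-04). Psmd7, the inactive partner of Psmd14, was at 59.6, 58.9, 62.6 and 55.9 CPM and then 51.3, 48.5, 46.1 and 52.1 (-0.26 ± 0.07, edgeR adjusted p = 0.00311). Psma7, an alpha subunit, was at 57.6, 61.0, 67.2 and 68.6 CPM and then 47.7, 49.2, 55.3 and 55.1 (-0.29 ± 0.08, edgeR adjusted p = 0.00346). None of these groups overlapped, but groups without overlap were a condition for choosing these genes. Psmd4 (-0.28), Psmd13 (-0.26) and Psmc4 (-0.22) complete the list of lower genes with Psmb6. Without vector TAC libraries 3 and 4, 2 genes were higher (Psmc6 and Psme4) and 3 lower (Psmd8, Psmc1 and Psmd7), and Psma7 had -0.19 (edgeR adjusted p = 0.107).

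Among the catalytic subunits Psmb6 passed. It was at 53.1, 55.1, 61.1 and 58.7 CPM in vector TAC and 45.3, 46.9, 48.7 and 54.5 in PRODH TAC (-0.22 ± 0.09, edgeR adjusted p = 0.0382). Its groups overlapped, and it passed only with all 16 libraries or without vector TAC library 1 or 2 or PRODH TAC library 4 (adjusted p up to 0.123 otherwise). Psmb6 missed the threshold with the 3 other scalings, DESeq2 and only the 2 groups fitted (adjusted p = 0.0524 to 0.0932). Psmb5 differed by -0.18 (0.108) and Psmb7 by 0.14 (0.129). Psmb7 passed without vector TAC library 2 (0.21, edgeR adjusted p = 0.00978) and, with adjusted p of 0.0330 to 0.0462, without vector sham library 1 or 2 or PRODH sham library 1 or 4. Psme1 (0.15), Psme2 (0.14) and Psme3 (-0.03) did not pass. Psme1 passed without vector sham library 1 or 2 or PRODH sham library 1, 2 or 4, and Psme2 without any single sham library. The count of 4 higher genes became 8 without any of vector sham libraries 1 and 2 and PRODH sham libraries 1 and 4, 7 when PRODH sham library 2 was left out, and 2 for vector TAC library 4. Fibroblast markers were lower in PRODH TAC than in vector TAC for 12 of 12 genes, endothelial markers for 10 of 10 and myeloid markers for 9 of 11. Of 12 cardiomyocyte markers 5 were higher and 1 lower, and of 9 mural markers 2 were higher and 5 lower. The part of these markers in the proteasome differences was not tested.

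**Figure D3:**
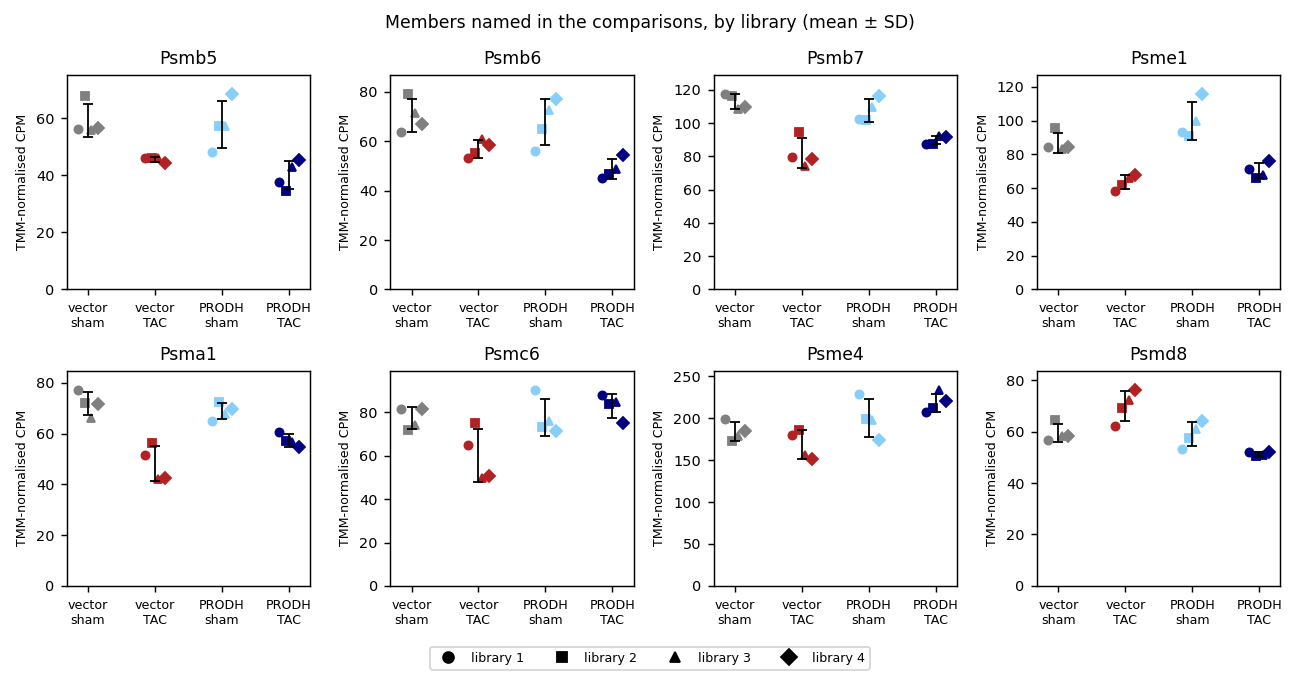
TMM-normalised CPM (y axis, from 0) of 8 genes in the 16 libraries, by group, with mean and SD (bars) and a marker shape for each library number. Psmb5, Psmb6, Psmb7 and Psme1 were lower after TAC under both viruses on this scale. By library size alone none of these was called under either virus, and Psmb6 under the vector and Psmb7 under PRODH had the opposite sign. Psma1 and Psmc6 show vector TAC libraries 3 and 4 below 1 and 2. Psmd8 was highest in vector TAC (62.2 to 76.0 CPM) and lowest in PRODH TAC (50.4 to 52.2 CPM).

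Around the proteasome, PRODH after TAC gave 1 higher and 4 lower of the 17 assembly factors and partners, with Ecpas at 0.38, Akirin2, which carries proteasomes into the nucleus, at -0.39 and the small lid protein Sem1 at -0.26. Of the 17 muscle ligases 6 were higher and 3 lower, led by Rnf207 (0.90), Klhl38 (0.77) and Trim55 (0.30). Fbxo32 was higher by 0.28 and Trim63 (MuRF1) by 0.18. By library size alone the partners gave 2 higher and 1 lower and the ligases 6 and 2. Among regulators of NRF1 and NRF2, 1 was higher and 3 lower of 11: Fbxw7 at 0.66, Mafk at -1.17 and Maff at -2.07, with Nfe2l2 at -0.32. The level of Mafk was 38.8 CPM ± 1.43 (SD, n = 4) with the vector after TAC, 17.3 ± 0.536 with PRODH after TAC and 15.9 ± 0.599 in vector sham. Shuttle receptors (2 higher, 3 lower of 9, with Sqstm1 -0.25 and Nbr1 0.23) and p97 cofactors (2 higher, 3 lower of 12, with Ubxn1 -0.60, Ubxn2a 0.65 and Ubxn7 0.25) went both ways. So did ubiquitin genes (2 higher, 3 lower of 9, with Ubb -0.40 and Uba3 0.65) and conjugating enzymes (2 higher, 8 lower of 27, with Ube2l6 0.83, Ube2b 0.41 and Ube2j1 -0.39). Of all tested genes 18.5% were higher and 24.6% lower, so a split both ways is not particular to these lists. Of the inducible beta subunits, Psmb10 was lower (-0.38) and Psmb8 higher (0.29), and Psmb9 (0.15) did not pass. TAC under the vector and PRODH after TAC share the vector TAC libraries, so values of opposite sign in both are not independent.

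TAC under PRODH lowered the constitutive genes too. In this arm 28 of the 41 fell and none rose (68.3%), against 17.8% of all genes lower, 17.2% higher and 35% either way. At an unadjusted p under 0.05 in edgeR the count of higher genes was also 0, and DESeq2 called 0 higher and 29 lower. Summed CPM was 2442 ± 112 in PRODH sham and 2073 ± 62.2 in PRODH TAC, without overlap (2327 to 2591, and 2004 to 2148). The median was -0.25 (0.02 for all genes), or -0.27 relative to all genes. That difference was the same under each of the 4 scalings, which again was fixed in advance. Library size alone called 12 higher and none lower, with a median of 0.13 (all genes 0.39), against 56% of all genes higher and 2.22% lower by that scaling. The count of lower genes was 14 without PRODH sham library 4 and 17 without PRODH sham library 2. Cardiomyocyte markers were lower for 8 of 12 genes and higher for 1, and summed to 45755 to 51749 CPM in PRODH sham and 35982 to 40196 in PRODH TAC. Fibroblast markers were higher for 10 of 12 (441 to 470 CPM, then 636 to 810), endothelial for 9 of 10 (566 to 615, then 730 to 839), mural for 7 of 9 (414 to 447, then 489 to 557) and myeloid for 2 of 11 (179 to 222, then 196 to 241). The part of these shifts in the lower proteasome transcripts was not tested.

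The beta ring again had 6 of 7 lower, the alpha ring 7 of 8, the ATPases 5 of 6, the lid 6 of 8, the other base subunits 2 of 3, the activators 2 of 4 and the base chaperones 0 of 3. Psmb5 was at 48.3, 57.5, 57.3 and 68.5 CPM in PRODH sham and 37.8, 34.6, 42.9 and 45.5 in PRODH TAC (-0.52 ± 0.09, edgeR adjusted p = 5.69e-05). Psmb6 read 56.2, 65.2, 72.8 and 77.1 CPM and then 45.3, 46.9, 48.7 and 54.5 (-0.47 ± 0.09, edgeR adjusted p = 9.31e-05). Psmb7 read 103, 102, 110 and 116 CPM and then 87.6, 87.8, 92.1 and 92.0 (-0.26 ± 0.07, edgeR adjusted p = 0.00519). No TAC library reached a sham library in any of these 3, and Psmb7 missed the threshold without PRODH sham library 4 (-0.18, edgeR adjusted p = 0.0575). Psmb4 was at 76.6, 84.0, 93.2 and 102 CPM and then 60.6, 64.1, 63.4 and 65.4 (-0.49 ± 0.08, edgeR adjusted p = 1.01e-05). Psme1 was at 93.3, 91.0, 99.6 and 116 CPM and then 71.3, 66.3, 67.6 and 76.2 (-0.51 ± 0.08, edgeR adjusted p = 7.20e-06). Neither gene's groups overlapped, which for Psmb4 was a condition for choosing it. Psme2 fell by 0.18 (edgeR adjusted p = 0.0368), a call that was lost without any single library of the other 3 groups, with TMM computed without mitochondrial genes (adjusted p = 0.0547), with no filter (0.189) and with only the 2 groups fitted (0.0502). By library size alone Psme2 was called higher (0.20, edgeR adjusted p = 0.0255). Psme3 (-0.05) and Psme4 (0.13) did not pass, and Psme4 passed as higher without PRODH sham library 1 (0.23, edgeR adjusted p = 0.0211).

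The surgery effect under the 2 viruses was called lower in both for 17 genes, among them all 3 catalytic subunits, Psmb2, Psmb4, 4 alpha subunits (Psma1, Psma2, Psma4 and Psma6), the ATPases Psmc2, Psmc3 and Psmc5, and Psme1. It was called lower only under the vector for 5 (Psmb3, Psmc6, Psmd10 and the name matches Psmc3ip and Psme3ip1) and lower under PRODH with no call under the vector for 10, among them Psma3, Psma5, Psma7, Psmb1, Psmc1 and Psmc4. The other gene, Psmd8, was called higher under the vector and lower under PRODH. For 8 genes it was called under neither: Psma8, Psmd1, Psmd5, Psmd9, Psmd11, Psmd13, Psme3 and Psme4. Over all tested genes 26.2% were lower under the vector and 17.8% under PRODH. The share of all genes called lower in both arms was not computed, so these counts have none beside them. The 2 arms share no library. A call under 1 virus alone does not show a difference between them, which was tested for each gene as an interaction.

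The interaction, the TAC effect under PRODH minus that under the vector, was called for 6 of the 41 (14.6%), against 26.8% of all genes. The 2 higher were Psmc6 (0.46, edgeR adjusted p = 0.0222) and Psma1 (0.31, 0.0393). The 4 lower were Psmd8 (-0.43, edgeR adjusted p = 0.00210), Psmd4 (-0.34, 0.0199), Psma7 (-0.31, 0.0381) and Psmc1 (-0.27, 0.0422). Of all genes 10.9% were higher and 15.8% lower. Psmd8 read 53.2, 57.5, 60.9 and 64.2 CPM in PRODH sham, so that TAC changed it by -0.20 under PRODH and by 0.23 under the vector. Psmd4, which captures ubiquitin chains, read 51.7, 52.7, 56.5 and 64.8 CPM in PRODH sham and 43.9, 46.3, 47.5 and 47.8 in PRODH TAC, but 56.0, 57.6, 52.6 and 50.1 in vector sham and 51.1, 54.2, 58.1 and 61.7 in vector TAC. Its TAC effect was -0.28 under PRODH and 0.06 under the vector. Psmc6 differed by 0.10 after TAC under PRODH, from 90.1, 73.1, 75.9 and 71.2 CPM to the PRODH TAC values above, and by -0.36 under the vector. For the 3 catalytic subunits the interaction was -0.15 (Psmb5), -0.17 (Psmb6) and 0.20 (Psmb7), and for Psme1 to Psme4 it was -0.05, -0.10, -0.12 and 0.25, none called with all libraries.

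These interaction calls were sensitive to single libraries. Without vector TAC libraries 3 and 4 none was higher and 2 were lower (Psmd8 at -0.34, edgeR adjusted p = 0.0217, and Psma3 at -0.38, 0.0313). The 4 lower calls became 1 without any of vector sham libraries 1, 3 and 4 or PRODH sham libraries 3 and 4. They became 2 without any of vector TAC libraries 3 and 4, PRODH sham libraries 1 and 2 or PRODH TAC library 2. The 2 higher calls became 1 without any of vector TAC libraries 3 and 4 or PRODH TAC libraries 1, 2 and 3, and 5 without vector TAC library 2. Psmd8 and Psmc6 passed without any single library (adjusted p at most 0.0159 and 0.0474). Psma7 and Psmc1 missed the threshold with each of the 3 other scalings and with no filter (adjusted p = 0.0560 to 0.0613 for Psma7 and 0.0669 to 0.133 for Psmc1), and Psma7 also with DESeq2 (0.0625). Psma1 and Psmc6 missed it by library size alone (0.0643 and 0.0646). Psma1, Psmd4, Psma7 and Psmc1 each missed the threshold without at least 1 library (adjusted p up to 0.103, 0.129, 0.198 and 0.204). Psmb7 passed without vector TAC library 2 (0.28) or PRODH sham library 4 (0.30), and Psme4 without vector TAC library 2 (0.30), vector sham library 2 (0.33) or PRODH sham library 1 (0.37).

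**Figure D4:**
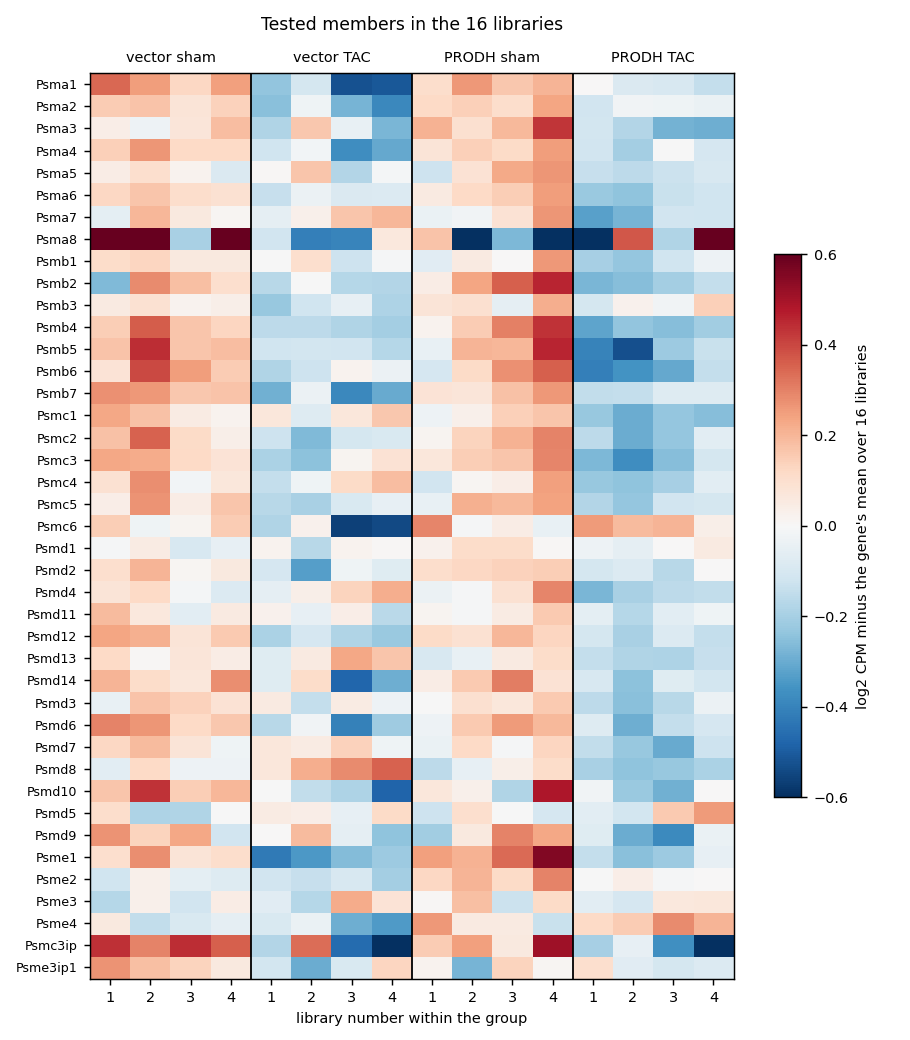
Log2 CPM of each tested gene (rows, by class) minus its mean over the 16 libraries (columns, by group), with colours that stop at 0.6 on either side, a limit that the thinly counted Psma8 and Psmc3ip pass. Red is above the gene's mean. On this TMM scale most genes are red in the sham libraries and blue in the TAC libraries (by library size alone the median member was higher after TAC), and vector TAC libraries 3 and 4 are lowest for Psma1 and Psmc6.

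Without pressure load, PRODH changed 1 of the 41 genes (2.44%), against 5% of all genes (2.81% higher and 2.2% lower), and the median was -0.01. Psme2, the partner of Psme1, read 32.5, 36.1, 34.0 and 33.5 CPM in vector sham and 38.5, 40.7, 38.3 and 43.5 in PRODH sham. It was higher by 0.24 ± 0.07 (edgeR adjusted p = 0.0308), without overlap. No gene was lower in edgeR or DESeq2, and 1 was (Psma8) at an unadjusted p under 0.05. Psme2 missed the threshold without vector sham library 1, 3 or 4 or PRODH sham library 2 or 4 (adjusted p up to 0.128), so the count is then 0, and with library size alone, no filter or only the 2 groups. Myeloid markers were higher in PRODH sham for 4 of 11 genes and lower for 1 (116 to 189 CPM in vector sham and 179 to 222 in PRODH sham), and their part in the Psme2 difference was not tested. The inducible subunits Psmb8 (0.70, edgeR adjusted p = 0.000863) and Psmb10 (0.30, 0.0494) were also higher. Psme1 differed by 0.20 (0.152), Psme3 by 0.10 and Psme4 by 0.12. Psmb5, Psmb6 and Psmb7 differed by -0.03, -0.05 and -0.07. Summed CPM was 2404 ± 81.8 in vector sham and 2442 ± 112 in PRODH sham, with overlapping ranges.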

How the data were processed

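RNA from cardiomyocytes was taken up in TRIzol, treated with DNase I and made into libraries with a SMARTER mRNA-Seq kit, per the labels' protocols. The authors deposited a table with an estimated count for each gene in each library, not always a whole number (9538 of 57010 gene models have a fractional one), and gene lengths. Their deposited group means, a signal equal to the mean of the 4 estimated counts of each group, were not used. The aligner, counter, annotation and build behind the table are not given in the sources used.

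Counts were rounded and tested with edgeR 4.0.16 (R 4.3.3, limma 3.58.1): filterByExpr (minimum count 10, minimum total 15), TMM factors, robust quasi-likelihood fit of all 16 libraries in 4 groups with no block, Benjamini-Hochberg adjustment over the 14066 genes of a comparison, threshold 0.05. A ± beside a log2 difference is the standard error, and beside CPM the SD of 4 libraries. CPM was computed here from TMM factors. No 2 libraries of a group held the same counts (chi-square per gene 2.87 to 30.7, for genes whose counts sum to 20 or more). The test was checked on simulated counts. Alternatives were library size alone, RLE factors, TMM without mitochondrial genes, DESeq2 1.42.0, other filters, 2-group fits, a replicate block and leaving out libraries.

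The members, lists and the rule for named genes were chosen with earlier results of these data known. Named were Psmb5, Psmb6, Psmb7, Psme1 to Psme4 and Prodh. Up to 4 called members per direction with the smallest p and groups that do not overlap were added (the interaction had no overlap condition). Up to 3 called genes per pathway list were named too, and other members are given with role and fold. Some genes were named outside this rule: Nfe2l1 for TAC under the vector, and Fbxo32, Trim63 and Nfe2l2 for PRODH after TAC.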

Additional observations from a re-analysis of the deposited data

Results flagged for a closer look

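In groups of 4 libraries, 168 sets of values were checked for a library that stood apart by Dixon's criterion, and 10 were found. Chance gives about 1 in 20. Of these, 6 were vector sham library 2, which was high for Psmb4 (97.2 CPM, next 84.9), Psmb5 (67.9, next 56.7), Psme1 (95.6, next 84.6), Psmd8 (64.7, next 58.1), Psmd10 (6.85, next 5.81) and Psma4 (70.6, next 64.9). Vector TAC library 2 was low for Psmd1 (55.9, next 63.0) and high for Psmb2 (34.3, next 30.5). Vector TAC library 4 was low for Psmb5 (44.4, next 45.9), and PRODH TAC library 2 was high for Psme2 (36.3, next 35.4).

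The effect of TAC under PRODH minus that under the vector passed the interaction test for 6 members: Psmc6 (0.46), Psma1 (0.31), Psmd8 (-0.43), Psmd4 (-0.34), Psma7 (-0.31) and Psmc1 (-0.27), all on the log2 scale in edgeR.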

How the results depend on the processing

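Library size alone gave 17 members higher, 1 lower and a median of 0.13 for TAC under the vector, and 12 higher, 0 lower and 0.13 for TAC under PRODH, reversing Psmb6 (0.0457), Psmd12 (0.0071), Psme2 (0.27) and Psme4 (0.23) under the vector and Psmb7 (0.12), Psme2 (0.20), Psme3 (0.32) and Prodh (0.36) under PRODH. It gave 7 higher for PRODH after TAC, 0 higher for PRODH after sham, and 0 higher and 2 lower for the interaction. Summed CPM was then 2104 (sham) and 2335 (TAC) under the vector and 2165 and 2392 under PRODH. It was 3849, 3319, 3921 and 3361, in the same order, with TMM without mitochondrial genes. RLE factors, TMM without mitochondrial genes and no filter each left 2 lower for the interaction. PRODH after sham had 0 higher with no filter and with only the 2 groups, which also gave 7 higher after TAC. Apart from the scalings, the cause of these shifts was not tested.

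Without vector TAC libraries 3 and 4 together there were 0 higher and 17 lower for TAC under the vector, 2 higher and 3 lower for PRODH after TAC, and 0 higher and 2 lower for the interaction. Leaving out 1 library at a time gave 18 to 22 lower for TAC under the vector, 2 to 8 higher and 6 to 10 lower for PRODH after TAC, and 0 to 1 higher and 14 to 29 lower for TAC under PRODH. PRODH after sham gave 0 to 1 higher. The interaction gave 1 to 5 higher, 1 to 4 lower and a median of -0.10 to 0.0169. DESeq2 and a filter of 1 CPM in 4 libraries kept the 15 counts and medians within the limits set for no change.

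Whether libraries with the same number belong together is not stated in the sample titles. Over 24 same-number pairs the correlation of deviations was -0.13 to 0.17 (median 0.01). Of these pairs 3 were over 0.1, and 4 of 16 libraries correlated best with their own number. Low correlations cannot show that the libraries were unpaired. With the replicate number as a block, the calls were 1 higher and 22 lower for TAC under the vector and 4 higher and 8 lower for PRODH after TAC, as without it, and the block changed no other count or call of those named. Depth limits Psma8 (140 counts in all libraries) and Psmb11.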
